A study of Mus musculus with 13 samples.

Results

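Heart transcripts of mice with 1 E3A allele were compared with the midpoint between mice with none and mice with 2. For each gene the value of the WT/E3A hearts was set against the average of the WT/WT and the E3A/E3A hearts, each genotype weighted equally, so a gene whose mRNA follows allele number in even log2 steps has a deviation of 0. The comparison used 9 of the 13 libraries, 3 hearts per genotype, and was repeated with all 13. The words potential outlier stand in the labels of the other 4, which are replicates 1 and 2 of E3A/E3A and replicate 1 of each other genotype. All animals were male C57BL/6N mice, 13 weeks old and on chow, and poly(A) RNA of the heart was sequenced. E3A is an allele of Cpt1b, the muscle form of carnitine palmitoyltransferase 1, with reduced sensitivity to malonyl-CoA. Each library has its own title and is called a heart here, but the labels do not spell out how replicates were obtained, so p-values measure only the spread between these samples, which may be in part technical. The labels give no litter, time of day or feeding state at collection.

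CPT1B sits on the outer mitochondrial membrane and controls how fast long-chain fatty acids enter the mitochondrion of heart muscle, and malonyl-CoA is its physiological brake. The genes called below belong to the circadian clock. In that loop the BMAL1 protein (gene Arntl) pairs with CLOCK or NPAS2 and switches on the Per, Cry, Rev-erb (Nr1d1, Nr1d2) and PAR bZIP (Dbp, Tef, Hlf) genes through a DNA motif called the E-box. PER and CRY proteins then block the pair, while REV-ERB and ROR proteins repress and activate Arntl and Nfil3 through another motif, the ROR element. Heart muscle has its own clock, and the mRNA of most of these genes swings over the day.

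The 9 libraries held 20.1 to 41.5 M counted reads and 16713 to 17565 genes with a read, and Myh6, the main ventricular myosin of the adult mouse, took 3.90 to 4.61% of reads. The libraries that stood apart were the 4 labelled ones. In the 4 labelled libraries depth was 23.5 to 52.6 M and Myh6 took 6.59 to 9.49%. The 10 cardiomyocyte markers were all detected. They summed to between 101300 and 105000 CPM in WT/WT, 101900 and 107800 CPM in WT/E3A, and 103700 and 106800 CPM in E3A/E3A, and 0 of 10 were called off the midpoint described below. Sums of endothelial markers were 1775 to 1868, 1636 to 1834 and 1747 to 2058 CPM in the same order, of fibroblast markers 2466 to 2638, 2538 to 2713 and 2660 to 2913 CPM, and of macrophage markers 240.2 to 299, 259.7 to 284 and 275 to 304 CPM, with 0 members called in each and WT/E3A ranges that overlap at least 1 homozygous range. Atrial and pacemaker markers summed to 200.7 to 349, 216 to 399 and 304 to 579 CPM, and the 6 hemoglobin genes were listed at 0 in all 9. Whether cell makeup plays a part in the values below was not tested, and in whole hearts fewer cells of a type and less RNA per cell cannot be told apart.

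Of 14373 genes tested in the 9 libraries, edgeR's quasi-likelihood test called 4 off the midpoint at an adjusted p under 0.05 (0.0278% of those tested). Tef and Hlf rose above the midpoint (0.0139%), and Npas2 and Arntl fell below it (0.0139%). At an unadjusted p under 0.05 there were 857 genes (5.96%), 376 above (2.62%) and 481 below (3.35%), where 718.65 would be expected by chance. With all 13 libraries 0 of 14387 genes were called by edgeR, and DESeq2 called 6. In that edgeR fit 141 genes had an unadjusted p under 0.05 (0.980%), fewer than the 719.35 expected by chance. The 0 calls there therefore do not show that deviations were absent. The spread between replicates, as a biological coefficient of variation, was 7.85% in the 9 libraries and 28.9% in the 13.

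The promoters of 5 clock genes are printed as examples of the motifs through which the loop is known to act. Not every clock gene with a match is printed. A set of 3 motifs was searched on both strands in RefSeq windows of 300 bases (GRCm38.p6), from 250 bases before each annotated start to 50 after it. They were the E-box (CACGTG), the D-box bound by DBP, TEF, HLF and NFIL3 (TTATGTAA or TTACGTAA), and the ROR element (TAGGTCA or TGGGTCA). Of all 32851 windows, 7.15% held the E-box, 1.06% the D-box and 6.45% the ROR element, and of all 27025 genes with a window, 8.09%, 1.23% and 7.35% had it in at least 1. Windows were found for 19 of the 23 clock genes tested, 26 windows in all, of which 7 held the E-box, 1 the D-box and 2 the ROR element. The E-box was in windows of 6 genes (Bhlhe41, Ciart, Cry1, Fkbp5, Per1 and Tef), the D-box in 1 (Per3) and the ROR element in 2 (Arntl and Nfil3). Those of Bhlhe41, Cry1, Fkbp5 and Per1 are not printed. No match was found for the called genes Npas2 and Hlf, and windows were not found for all clock genes. Capitals mark the motif, as read on the gene's strand. Each sequence below is the 250 bases before an annotated start, except the 30 bases of Arntl, which begin at base 20 after such a start. The starts are those of single transcripts: the first of Tef is the edge of the gene, and the others lie inside the gene's span, that of Arntl far from its edge.
Tef, chr15:81802423-81802672, plus strand: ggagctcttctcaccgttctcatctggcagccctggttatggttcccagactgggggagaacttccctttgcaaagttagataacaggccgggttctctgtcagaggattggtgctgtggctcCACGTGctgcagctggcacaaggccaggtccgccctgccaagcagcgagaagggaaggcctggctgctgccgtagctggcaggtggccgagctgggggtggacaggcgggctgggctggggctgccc
Tef, a later start, chr15:81811164-81811413, plus strand: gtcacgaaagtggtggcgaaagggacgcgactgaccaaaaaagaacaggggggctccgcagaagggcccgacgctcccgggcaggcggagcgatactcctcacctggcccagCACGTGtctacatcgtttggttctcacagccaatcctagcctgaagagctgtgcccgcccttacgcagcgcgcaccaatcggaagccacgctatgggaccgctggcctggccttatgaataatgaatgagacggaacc
Ciart, chr3:95882229-95882478, minus strand: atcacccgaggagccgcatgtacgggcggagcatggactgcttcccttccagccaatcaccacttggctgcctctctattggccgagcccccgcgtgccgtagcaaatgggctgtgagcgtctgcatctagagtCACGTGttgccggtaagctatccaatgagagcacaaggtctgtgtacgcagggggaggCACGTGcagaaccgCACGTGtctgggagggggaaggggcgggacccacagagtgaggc
Per3, chr4:151044666-151044915, minus strand: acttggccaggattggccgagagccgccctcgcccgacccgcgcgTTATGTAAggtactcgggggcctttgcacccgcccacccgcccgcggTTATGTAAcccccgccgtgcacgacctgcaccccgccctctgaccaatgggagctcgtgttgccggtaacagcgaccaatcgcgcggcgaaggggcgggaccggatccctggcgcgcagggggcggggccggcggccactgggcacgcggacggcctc
Nfil3, chr13:52981040-52981289, minus strand: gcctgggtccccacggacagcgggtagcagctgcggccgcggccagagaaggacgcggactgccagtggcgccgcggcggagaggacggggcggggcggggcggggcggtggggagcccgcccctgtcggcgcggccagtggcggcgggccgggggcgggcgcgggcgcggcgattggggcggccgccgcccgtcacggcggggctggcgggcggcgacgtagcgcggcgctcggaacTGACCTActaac
Arntl, chr7:113207530-113207559, plus strand: aaggcagaaagTAGGTCAgggacggaggtg
Counted from the first transcribed base as +1, the E-box begins at -127 and -138 in the pair of Tef promoters and at -116, -58 and -44 in Ciart. The D-boxes of Per3 begin at -205 and -158, and the ROR element begins at -12 in Nfil3 and at 31 in Arntl. A match is a description of these letters and not a measured binding site. Whether a motif goes with a deviation was not tested.

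The activators of the loop were the genes farthest below the midpoint among those called. Arntl encodes BMAL1, the partner that every activating pair needs (chromosome 7, 113178471 to 113314126; its ROR element is printed above). In CPM (counts scaled to a common library size, with TMM factors over the 9 libraries) Arntl stood at 29.8, 36.9 and 34.6 in the WT/WT hearts, 20.8, 20.8 and 16.7 in the WT/E3A hearts, and 33.0, 33.1 and 28.4 in the E3A/E3A hearts. All 3 WT/E3A hearts were lower than the lowest of the 6 homozygous hearts, and the homozygous groups overlapped. Its log2 deviation was -0.75 (SE 0.09, 95% interval -0.95 to -0.55, n = 3 per genotype, edgeR adjusted p = 0.0135), and the WT/E3A mean fell by 40.5% from the linear midpoint of 32.6 CPM. Npas2, which can stand in for CLOCK as the partner of BMAL1 (chromosome 1, 39193702 to 39363240), had 10.6, 12.4 and 12.8 CPM in WT/WT, 7.18, 7.87 and 7.42 CPM in WT/E3A, and 12.1, 11.6 and 11.1 CPM in E3A/E3A. Again the WT/E3A hearts did not overlap the others, and the homozygous ranges did overlap each other. The deviation was -0.65 (SE 0.08, 95% interval -0.83 to -0.47, edgeR adjusted p = 0.0135), from 2924 reads over the 9 libraries. Clock itself did not pass, at -0.07 (SE 0.06, adjusted p = 0.878 with edgeR), with 78.2 to 97.0 CPM over the WT/E3A hearts and 83.2 to 92.6 CPM over the homozygous hearts.

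The PAR bZIP factors, transcription factors that pass the clock's rhythm on to metabolic genes through D-boxes, lay on the other side. Tef (chromosome 15, 81802673 to 81826863) had 115, 109.8 and 104 CPM in WT/WT, 146, 137 and 172 CPM in WT/E3A, and 119, 119 and 118 CPM in E3A/E3A. Every WT/E3A heart was above every homozygous heart, with WT/E3A replicate 4 highest. The log2 deviation of Tef was 0.41 (SE 0.06, 95% interval 0.28 to 0.54, edgeR adjusted p = 0.0390). Hlf (chromosome 11, 90336535 to 90390917) had 27.1, 25.6 and 24.5 CPM in WT/WT, 37.3, 36.1 and 42.3 CPM in WT/E3A, and 32.1, 30.4 and 30.5 CPM in E3A/E3A. The 3 genotypes did not overlap for Hlf, and E3A/E3A lay between the other two. Its deviation was 0.45 (SE 0.06, 95% interval 0.32 to 0.57, edgeR adjusted p = 0.0135). Dbp, the third of these factors, had 20.1, 18.5 and 14.2 CPM in WT/WT, 40.7, 28.9 and 40.3 CPM in WT/E3A, and 23.3, 17.9 and 13.2 CPM in E3A/E3A. Its WT/E3A hearts were all above the 6 homozygous hearts, but the spread within genotypes was wide, and the deviation of 1.02 (SE 0.21) did not pass in edgeR (adjusted p = 0.788). Dbp was called by DESeq2 in the 9 libraries (adjusted p = 0.00222) and by limma-voom with quality weights in the 13 (0.0102). Nfil3 encodes the repressor that competes with these factors for D-boxes, and its values ran the other way. It stood at 14.7, 18.7 and 20.03 CPM in WT/WT, 13.7, 16.9 and 16.1 CPM in WT/E3A, and 18.4, 27.2 and 31.2 CPM in E3A/E3A. The WT/E3A and WT/WT hearts overlapped, and the deviation of -0.44 (SE 0.19) did not pass (edgeR unadjusted p = 0.0520).

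**Figure D1:**
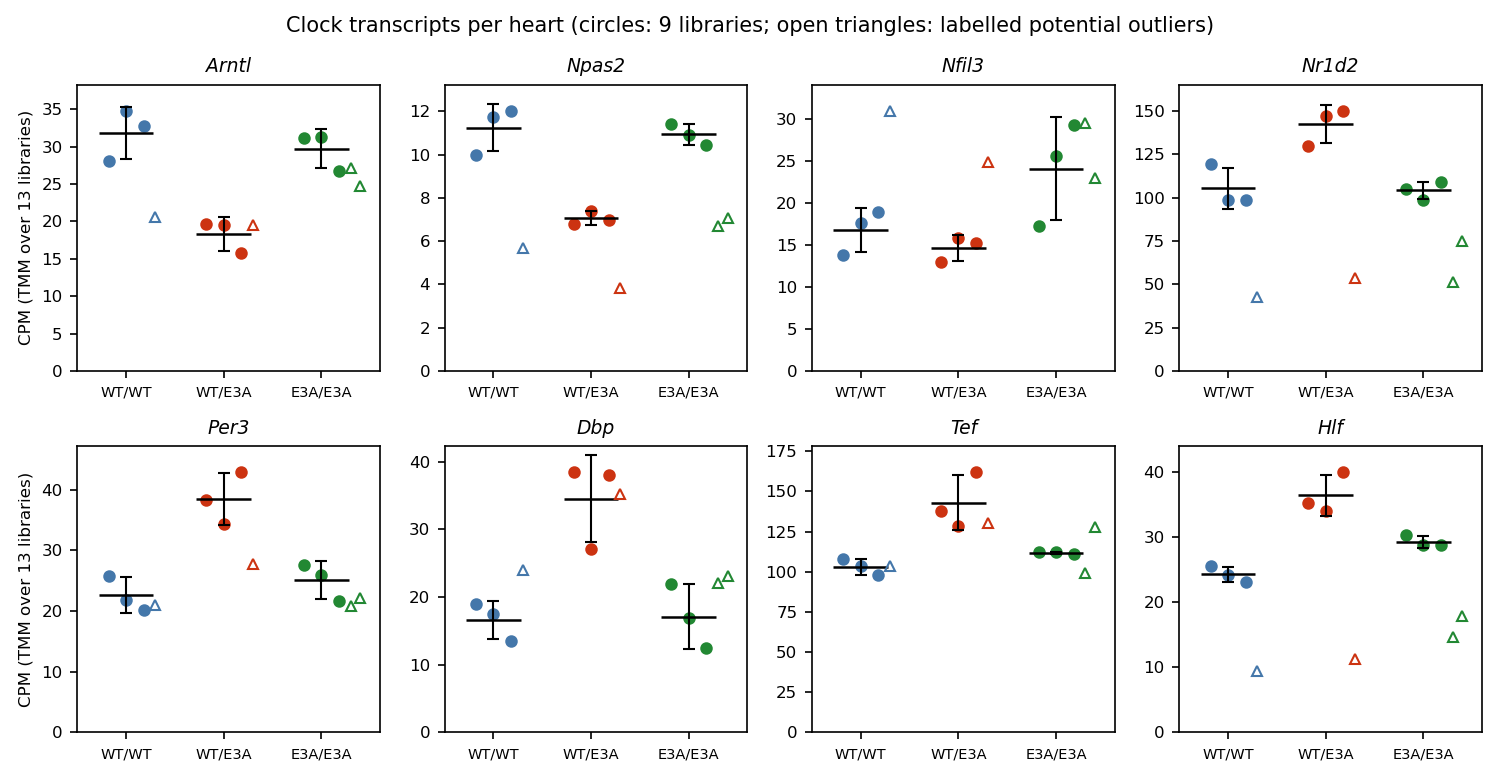
Transcript level in CPM (TMM over 13 libraries) of 8 clock genes in each heart, by genotype. Circles are the 9 libraries of the comparison with their mean and SD, and open triangles are the 4 libraries labelled potential outlier. For Arntl and Npas2 the WT/E3A circles lie below all homozygous circles, and for Nr1d2, Per3, Dbp, Tef and Hlf above them, while the triangles of Npas2, Nr1d2 and Hlf lie below the circles of their own genotype.

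Set against each homozygous genotype singly, the same WT/E3A hearts were on 1 side of both. Against WT/WT edgeR called 3 genes (0.0209% of those tested), and against E3A/E3A it called 6 (0.0417%). These comparisons share the WT/E3A libraries, so their values are given side by side only. Npas2 was -0.67 against WT/WT (edgeR adjusted p = 0.0258) and -0.63 against E3A/E3A (0.0391). Arntl was -0.79 (edgeR adjusted p = 0.0258) and -0.70 (0.0434). Hlf was 0.58 against WT/WT (edgeR adjusted p = 0.00927) and 0.31 against E3A/E3A, where it did not pass (0.257). Tef passed in neither comparison, with 0.47 (edgeR adjusted p = 0.0504) and 0.35 (0.226). Between the homozygous genotypes the log2 differences (E3A/E3A minus WT/WT) were -0.04 for Npas2, -0.09 for Arntl, 0.27 for Hlf and 0.12 for Tef, and none of these 4 passed (edgeR adjusted p = 0.976, 0.908, 0.176 and 0.776).

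The 4 calls did not hold in all alternatives, although the deviations kept their sign in 21 of 21 for each gene. These alternatives share most of their hearts, so a kept sign is not separate evidence. Npas2 was called in 12 of the 21, Hlf and Arntl in 11 each and Tef in 9. No gene was called by edgeR with the title prefix as a block, where Npas2 stood at -0.58 (adjusted p = 0.711), Arntl at -0.65 (0.711), Hlf at 0.40 (0.856) and Tef at 0.35 (0.999). No gene was called without E3A/E3A replicate 4, WT/E3A replicate 2, WT/E3A replicate 4, WT/WT replicate 3 or WT/WT replicate 4, and 10 and 13 were called without WT/WT replicate 2 and E3A/E3A replicate 5. The prefix (C3, C4 or C6 in these 9; its meaning is not given) is uneven over genotypes: C6 holds 2 WT/WT hearts alone, and C4 holds no WT/WT heart. Within C3 (1 WT/E3A, 1 WT/WT and 2 E3A/E3A hearts) the deviations were -0.62 for Npas2, -0.53 for Arntl, 0.36 for Hlf and 0.32 for Tef. Within C4 the difference of 2 WT/E3A hearts from 1 E3A/E3A heart was -0.59 for Npas2, -0.83 for Arntl, 0.36 for Hlf and 0.36 for Tef. The time of day at which each heart was taken is not in the labels, and its part in these differences was not tested.

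Repressors of the loop mostly had positive deviations, and none of the 8 measured passed in edgeR with the 9 libraries. DESeq2 called Per3 (adjusted p = 4.10e-08) and Ciart (0.0108) in the same libraries, and limma-voom with quality weights called both in the 13 (0.00405 and 0.0235). Per3, a PER family member with 2 D-boxes in the printed promoter, had 27.4, 23.1 and 21.3 CPM in WT/WT, 40.5, 36.4 and 45.4 CPM in WT/E3A, and 29.3, 27.5 and 23.02 CPM in E3A/E3A. Its WT/E3A hearts were separate from the rest and its deviation was 0.69 (SE 0.10, edgeR adjusted p = 0.0860). Ciart, which encodes the repressor CHRONO and has 3 E-boxes in the printed promoter, had 3.09, 3.00 and 2.74 CPM in WT/WT, 5.18, 4.41 and 6.72 CPM in WT/E3A, and 2.38, 2.82 and 4.24 CPM in E3A/E3A. These groups were separate as well, though WT/E3A replicate 3 and E3A/E3A replicate 5 lay close together, and the deviation was 0.84 (SE 0.17, edgeR adjusted p = 0.332; 996 reads in the 9 libraries). Per2 had the deviation of largest size in the list, 1.49 (SE 0.55, edgeR unadjusted p = 0.0343), and it did not pass after adjustment. Its levels were 10.6, 3.63 and 6.09 CPM in WT/WT, 14.0, 22.03 and 37.6 CPM in WT/E3A, and 5.47, 7.44 and 21.1 CPM in E3A/E3A, so E3A/E3A replicate 5 fell within the WT/E3A range. Per1 also overlapped, with 35.2 to 99.9 CPM in WT/WT, 116 to 134 CPM in WT/E3A and 43.2 to 138 CPM in E3A/E3A (deviation 0.58, SE 0.44). Cry2 was at 0.18 (SE 0.07), Cry1 at -0.17 (SE 0.08), and the E-box repressors Bhlhe40 and Bhlhe41 at 0.46 (SE 0.24) and 0.04 (SE 0.13). With the title prefix as a block Bhlhe40 stood at 0.06 (SE 0.16) and Per1 at 0.27 (SE 0.64).

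Among the nuclear receptors that tune Arntl, Nr1d2 (Rev-erb beta, a repressor) had the lowest p of the genes that edgeR did not call. It stood at 126, 105 and 104 CPM in WT/WT, 138, 156 and 159 CPM in WT/E3A, and 111, 104 and 116 CPM in E3A/E3A. The WT/E3A hearts were all above the others, although WT/WT replicate 2 came near, and the deviation was 0.44 (SE 0.07, edgeR adjusted p = 0.0756). Nr1d2 was called in 6 of 21 alternatives, among them DESeq2 (adjusted p = 2.93e-06), edgeR with upper quartile factors (0.0384) and the 2-group design (0.0452). Its deviation within C3 was 0.20. Nr1d1 (Rev-erb alpha) was at 0.22 (SE 0.09) with overlapping groups. It lies opposite Thra on the other strand, and whether counting used strand is not given in the sources used here. Rora, an activator of Arntl, was at 0.08 (SE 0.09). Of the genes that respond to the clock or to glucocorticoid hormone, Usp2 was at 0.39 (SE 0.14), the cell-cycle kinase Wee1 at 0.30 (SE 0.12), Tsc22d3 at 0.38 (SE 0.30) and Fkbp5 at 0.27 (SE 0.43; 0.14 with the prefix block).

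Over the whole clock list, 23 genes were tested, 2 rose and 2 fell, and 17 had positive and 6 negative deviations. At an unadjusted p under 0.05 there were 11 above and 4 below the midpoint, together 65.2% of the list against 5.96% of all genes tested. The median deviation was 0.30 against 0.00 over all genes, and over 13 alternatives the median of the list ranged from 0.22 to 0.44. In 21 of the 23 the WT/E3A mean lay outside both homozygous means, as it did for 66.2% of all genes tested. The 3 WT/E3A hearts were separate from the 6 homozygous hearts in 9 clock genes, 6 above and 3 below, where 2.65% of all tested genes were (1.19% above, 1.46% below). These 23 genes were read in the same 9 hearts and many act in 1 loop, so they are not 23 separate observations. The list includes the 4 called genes and was chosen with earlier results of these data known.

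The 4 libraries labelled potential outlier were also examined on their own, a look chosen after the data were seen and with no test, since it has 1 WT/WT, 1 WT/E3A and 2 E3A/E3A hearts. Their deviation had the same sign as in the 9 libraries for 19 of 23 clock genes (82.6%), against 51.6% of all genes tested, and the median was 0.19. These 23 genes were read in the same 4 hearts, so they are not 23 separate observations. The only WT/WT heart among them, replicate 1, was far from its genotype for Hlf, Clock, Cry1 and Fkbp5, as given at the end. WT/E3A replicate 1 also stood apart from the other WT/E3A hearts (CPM with TMM over 13 libraries). It had 21.4 for Clock (others 73.85 to 91.25), 11.3 for Hlf (33.9 to 39.95) and 21.7 for Cry1 (10.6 to 12.9). The labelled E3A/E3A hearts had 34.4 and 46.8 for Clock, against 78.6 to 86.2 in the other E3A/E3A hearts. For Per3 (CPM with TMM over 13 libraries) WT/E3A replicate 1 had 27.7 against 20.9, 20.8 and 22.1 in the WT/WT heart and the pair of E3A/E3A hearts. For Dbp it had 35.2 against 24.0, 22.01 and 23.1, and for Npas2 3.82 against 5.68, 6.72 and 7.05. In each of these 3 genes the WT/E3A heart lay outside the other 3. Over the clock list this held in 11 of 23 genes (47.8%), on the side seen in the 9 libraries. The share of all genes tested was 28.9%. The values of Arntl were 19.5 in WT/E3A against 20.6, 27.1 and 24.7, so the WT/E3A heart was lowest but close to WT/WT replicate 1. Hlf went the other way, at -0.13, with 11.3 in WT/E3A against 9.41, 14.6 and 17.8, as did Cry1 (0.45) and Rora (-0.06). With all 13 libraries together the deviations were -0.62 for Npas2, -0.62 for Arntl, 0.44 for Hlf and 0.37 for Tef, and none of the 4 passed (edgeR adjusted p = 1 each).

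**Figure D2:**
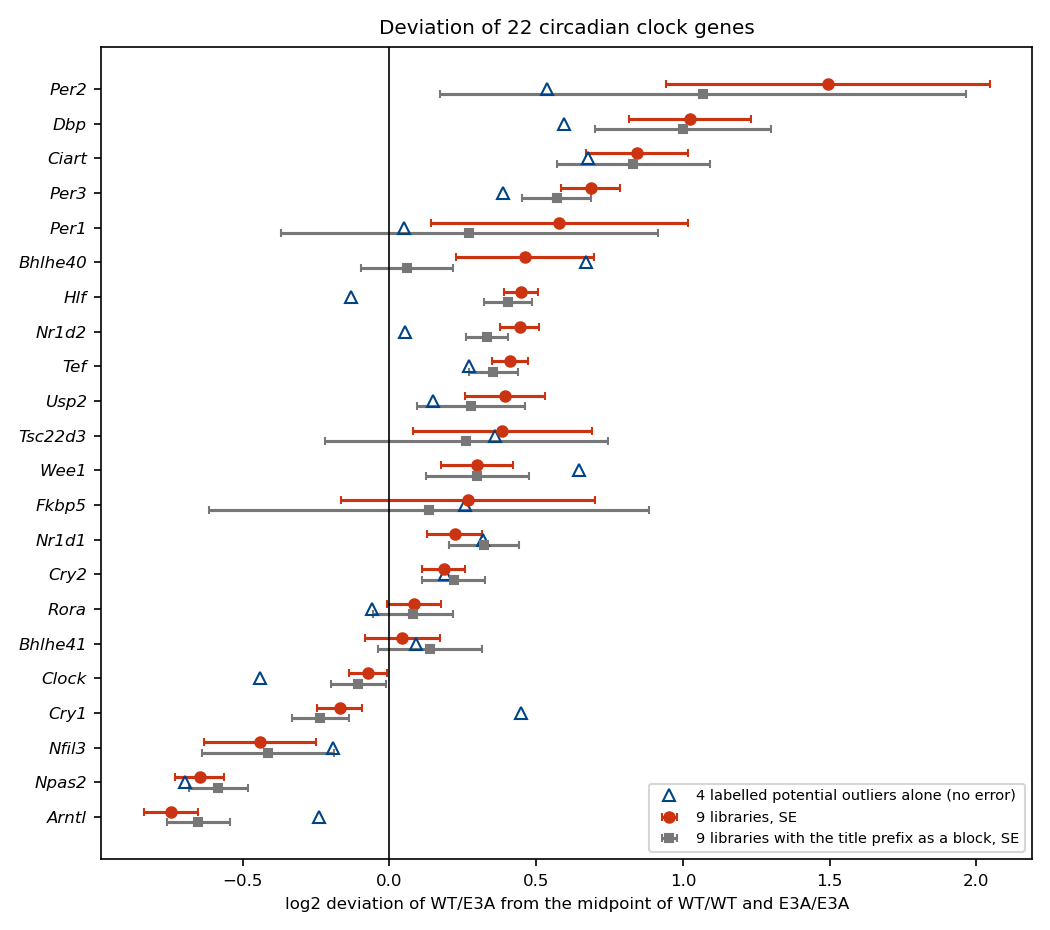
Log2 deviation of WT/E3A hearts from the midpoint of the homozygous genotypes for 22 clock genes. Red circles are the 9 libraries and grey squares the same libraries with the title prefix as a block, both with SE, and open triangles are the 4 labelled libraries alone, without error. The circles run from -0.75 for Arntl to 1.49 for Per2, and the triangles lie across 0 from the circles for 3 genes.

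Outside the clock edgeR called no gene in the main fit of the 9 libraries. The genes of lowest p are given as values, leaving out gene models without a name. Above the midpoint these were Slc9a9, described below with its levels, Tppp, a microtubule-binding protein (0.31, SE 0.06, edgeR adjusted p = 0.292), the myosin light chain kinase family member Mylk4 (0.25, SE 0.05, 0.375), the stress-induced gene Ier3 (0.58, SE 0.12, 0.472), Ccdc74a (0.90, SE 0.22, 0.636), and Fgd6 (0.27, SE 0.07, 0.636). Below it were Rcan1, an inhibitor of calcineurin (-0.30, SE 0.05, edgeR adjusted p = 0.0756), the collagen chain Col5a3 (-0.24, 0.190), the matrix protease Adamts4 (-0.75, 0.203), Inhbb, an activin subunit (-0.69, 0.285), the transcription elongation factor Leo1 (-0.26, 0.332), Fam124b (-0.61, 0.392), Tspan18 (-0.26, 0.392), Tmem171 (-0.63, 0.444) and the magnesium transporter Slc41a3 (-0.32, 0.444). Rcan1 had 124, 121 and 119 CPM in WT/WT, 95.3, 98.5 and 104 CPM in WT/E3A, and 117, 119 and 133 CPM in E3A/E3A. Its WT/E3A hearts were the lowest of the 9 without overlap. Ier3 had 18.8, 11.8 and 15.01 CPM in WT/WT, 21.0, 21.4 and 25.5 CPM in WT/E3A, and 14.7, 15.5 and 14.9 CPM in E3A/E3A, again without overlap. DESeq2 called Rcan1 (adjusted p = 0.000266) and Ier3 (0.00132) in the 9 libraries, where it called 21 genes, 11 above and 10 below the midpoint, 8 of them in the clock list and 13 outside it. With the title prefix as a block Ier3 stood at 0.37 (SE 0.11), Ccdc74a at 0.58 (SE 0.28) and Slc41a3 at -0.20 (SE 0.07). Col5a3 changed sign with all 13 libraries, from -0.24 to 0.12.

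Genes of sterol and fatty acid synthesis, which make cholesterol and fatty acids under control of SREBP factors, had mostly negative deviations, but edgeR called none. Of 31 tested, 28 were negative and 10 were below the midpoint at an unadjusted p under 0.05 (all genes: 3.35%), with a median of -0.14 that ranged from -0.16 to -0.11 over 13 alternatives. Insig1, the sterol sensor that holds SREBP in the endoplasmic reticulum, had 22.7, 25.5 and 20.4 CPM in WT/WT, 15.5, 18.01 and 17.98 CPM in WT/E3A, and 24.4, 20.1 and 18.5 CPM in E3A/E3A. The WT/E3A hearts were lowest, with E3A/E3A replicate 5 only just above them (deviation -0.35, SE 0.10, edgeR unadjusted p = 0.00376). Mvd of the mevalonate pathway was at -0.30 (SE 0.11), the sterol carrier Stard4 at -0.27 (SE 0.10; -0.13 with the prefix block), the squalene epoxidase Sqle at -0.38 (SE 0.16), and Srebf1 and Srebf2, the genes of the SREBP factors, at -0.21 (SE 0.08) and -0.12 (SE 0.05).

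Of the heat shock, interferon and immediate early genes, edgeR called none in the 9 libraries, and DESeq2 called the immediate early genes Nr4a2 and Ier3. For heat shock proteins and cochaperones 23 of 27 were positive and the median was 0.11 (0.02 to 0.14 over 13 alternatives), which became 0.02 with the prefix block. Hspa1a, which may share reads with its near-identical copy Hspa1b, was at 1.73 (SE 0.81), but at 0.40 (SE 1.18) with the prefix block and at -1.40 within C3, so its direction was not stable. Hspa4 and Dnajb4 were at 0.12 (SE 0.04) and 0.23 (SE 0.09), and Hspa4 stood at 0.07 (SE 0.06) with the block. Interferon response genes were negative in 21 of 24 with a median of -0.14 (-0.17 to 0.04), which turned to 0.04 with the prefix block, and Isg15 was at -0.31 (SE 0.12). Immediate early genes, which cells switch on within minutes of a stimulus, were mixed, with 10 positive, 13 negative and a median of -0.14 (-0.33 to -0.04). Nr4a2, a nuclear receptor of this class, had 3.51, 6.80 and 4.44 CPM in WT/WT, 2.34, 4.26 and 2.89 CPM in WT/E3A, and 10.7, 12.7 and 9.77 CPM in E3A/E3A. Its WT/E3A and WT/WT hearts overlapped and all E3A/E3A hearts were higher. The deviation of -1.16 (SE 0.25) did not pass in edgeR (adjusted p = 0.636) and was called by DESeq2 (adjusted p = 2.32e-05). Fos was at -1.44 (SE 0.70), Junb at -0.74 (SE 0.30), and Nr4a1 at -0.14 (SE 0.28; -0.54 with the prefix block).

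**Figure D3:**
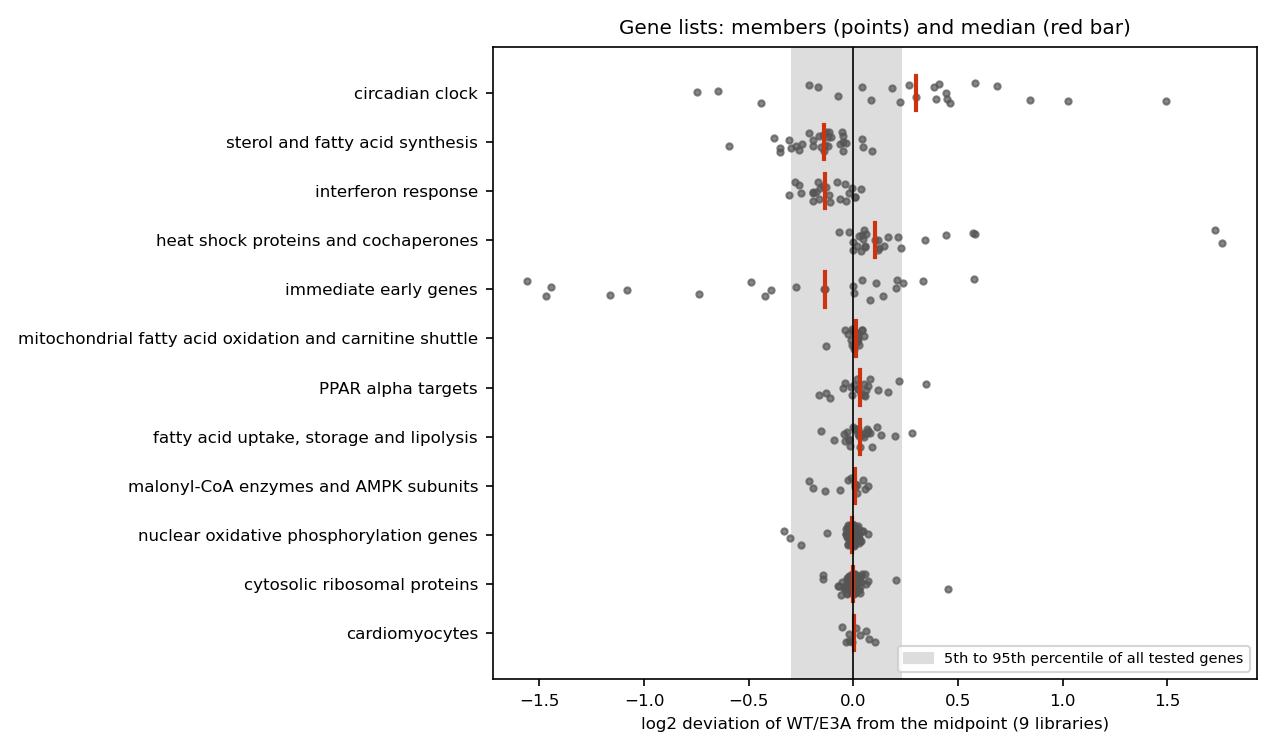
Log2 deviation of WT/E3A from the midpoint in the 9 libraries for the members (points) of 12 gene lists, with the list median as a red bar. Grey marks the range from the 5th to the 95th percentile of all tested genes (-0.29 to 0.23). The clock list has its median at 0.30 with members on both sides, and the fatty acid oxidation list is held near 0.01.

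Fatty acid oxidation, the pathway that CPT1B opens, stayed near the midpoint. Of 24 genes tested, 0 were called by edgeR and 0 had an unadjusted p under 0.05 (all genes: 5.96%), and the median deviation was 0.01, between -0.01 and 0.04 over 13 alternatives. All 24 intervals included 0, the median SE was 0.04, and the lowest and highest 95% bounds of any member were -0.38 and 0.16. Targets of PPAR alpha, a nuclear receptor for fatty acids, had a median of 0.03 (22 tested), malonyl-CoA enzymes with AMPK subunits 0.01 (13 tested), genes of fatty acid uptake and storage 0.03 (29 tested), nuclear oxidative phosphorylation genes -0.01 (83 tested) and cytosolic ribosomal proteins -0.00 (79 tested), with 0 members called in each. At an unadjusted p under 0.05 these 5 lists held the peroxisomal enzyme Ehhadh (-0.16; -0.06 with the prefix block), the AMPK subunit Prkab1 (-0.19), the glycerolipid enzyme Gpam (0.11; 0.19 with the block) and the oxidative phosphorylation genes Atp5l and Cyc1, below the midpoint. The fatty acid transporter Cd36 was at 0.02 (SE 0.05), Pdk4 at 0.17 (SE 0.63) and Ucp3 at 0.22 (SE 0.32), the last pair with wide spread between hearts and values of -0.03 and 0.06 with the prefix block.

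Cpt1b itself (chromosome 15, 89416405 to 89425862) had 3.02, 3.00 and 3.18 CPM in WT/WT, 3.39, 3.28 and 2.63 CPM in WT/E3A, and 3.67, 3.97 and 3.60 CPM in E3A/E3A. The WT/E3A hearts overlapped the WT/WT hearts, and the E3A/E3A hearts were highest. These levels were low beside those of the related gene Cpt1a, with means of 91.6, 88.8 and 80.5 CPM in the same genotype order. Annotation, strand setting and multimapping rules are not given, and whether all Cpt1b reads were assigned to this symbol was not tested. The values are therefore counts under the symbol and may not stand for the full mRNA level of Cpt1b. Its deviation on log2(CPM + 0.1) was -0.13 (two-sided exact permutation test over 1680 assignments, p = 0.345) and -0.11 (exact permutation p = 0.649) with 13 libraries.

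Genes that separated the homozygous genotypes were intermediate in WT/E3A hearts. In the 9 libraries edgeR called 39 genes between E3A/E3A and WT/WT (0.271% of those tested; 8 higher and 31 lower in E3A/E3A), and of these 39 it called 0 off the midpoint, with 3 at an unadjusted p under 0.05. The WT/E3A mean lay between the homozygous means in 39 of 39; the homozygous difference chose these genes, so this is a description. Counted from WT/WT to E3A/E3A on the log2 scale, WT/E3A stood at a median of 45.4% of the way, from 21.0% for Slc9a9 to 82.4% for Egf, and 35 of 39 lay between 25 and 75%. The size of the deviation had a median of 0.05, against 0.06 over all genes tested.

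Among them were 9 genes of the fatty acid oxidation list, all called lower in E3A/E3A than in WT/WT. Etfdh, which hands electrons to the respiratory chain, stood at 33.0% of the way, Cpt2 at 42.5%, the trifunctional protein genes Hadha and Hadhb at 42.9 and 45.4%, the carnitine carrier Slc25a20 at 45.9%, Decr1 at 46.1%, Ech1 at 50.2%, the thiolase Acaa2 at 51.5% and Hadh at 54.1%. Decr1, the reductase needed for unsaturated fatty acids, had 492, 512 and 496 CPM in WT/WT, 398, 455 and 440.1 CPM in WT/E3A, and 368, 371 and 350.5 CPM in E3A/E3A. The 3 genotypes did not overlap, and the deviation was 0.02 (SE 0.05). For Hadha the levels were 2088 to 2228 CPM, 1942 to 2046 CPM and 1720.0 to 1790.0 CPM in the same order, also without overlap (deviation 0.02, SE 0.04). Alox5, the arachidonate 5-lipoxygenase, had 24.7, 28.6 and 26.7 CPM in WT/WT, 19.4, 21.8 and 23.3 CPM in WT/E3A, and 13.8, 14.0 and 14.9 CPM in E3A/E3A. These groups were separate in the order of allele number, at 33.7% of the way, with a deviation of 0.15 (SE 0.07, edgeR unadjusted p = 0.0499). Fbp2, the muscle fructose bisphosphatase, was at 44.3% of the way (deviation 0.06, SE 0.09) and Jund, an AP-1 subunit, at 50.2% (0.00, SE 0.04). The acyl-CoA thioesterase Acot1, whose paralogs may share its reads, was at 38.9% (0.12, SE 0.11; -0.05 with the prefix block).

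Slc9a9, an endosomal sodium-proton exchanger, lay above the midpoint on the log2 and the linear scale in the 9 libraries. It had 3.60, 3.50 and 3.59 CPM in WT/WT, 2.79, 1.99 and 2.80 CPM in WT/E3A, and 0.766, 0.589 and 0.557 CPM in E3A/E3A, with no overlap. Its log2 deviation was 0.71 (SE 0.16, edgeR adjusted p = 0.424), while the WT/E3A mean of 2.53 CPM was 20.3% above the linear midpoint of 2.10 CPM. With all 13 libraries the log2 deviation was -0.19, with the opposite sign. In the 4 libraries labelled potential outlier (CPM with TMM over 13 libraries) Slc9a9 did not follow allele number. The WT/E3A heart was lowest there at 0.275 CPM, against 1.92 in WT/WT and 2.98 and 2.63 in E3A/E3A.

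**Figure D4:**
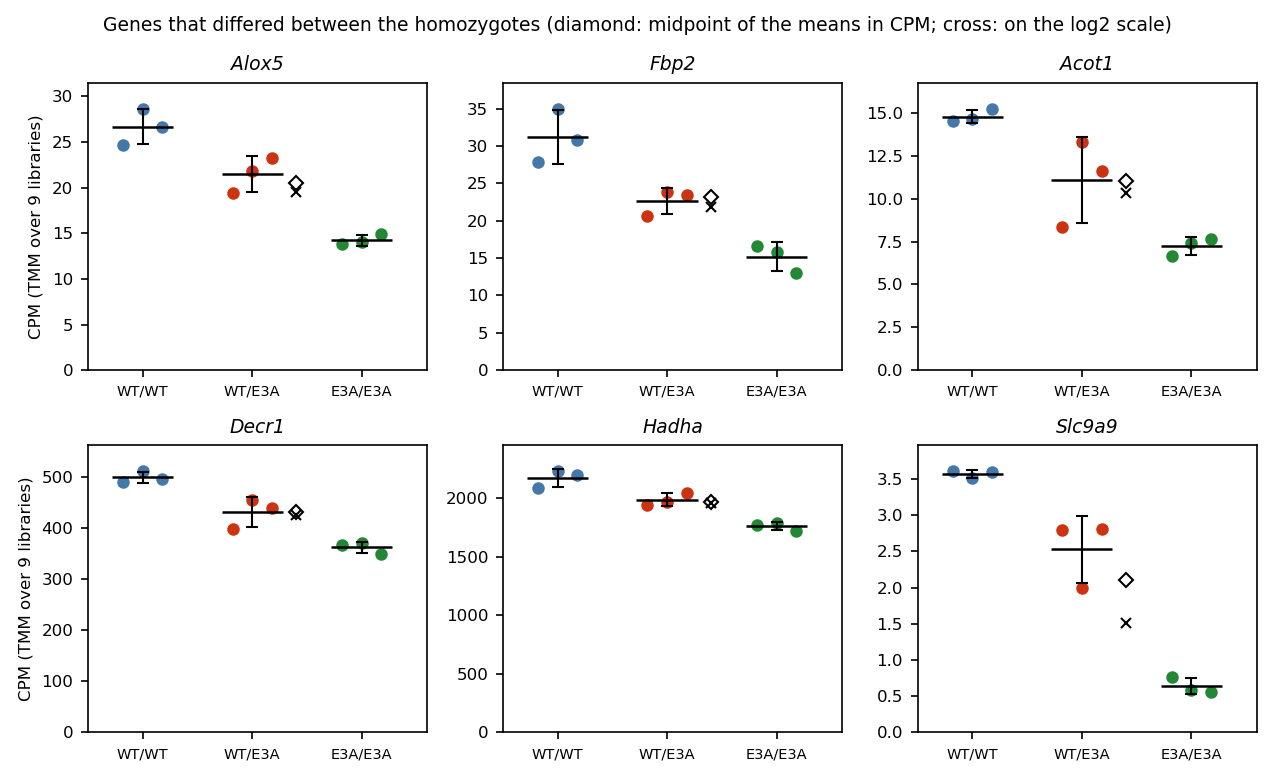
Transcript level in CPM (TMM over 9 libraries) of 6 genes called between E3A/E3A and WT/WT, by genotype. Circles are hearts and bars their mean and SD, the diamond is the midpoint of the homozygous means in CPM and the cross the midpoint on the log2 scale. The WT/E3A mean lies between the homozygous means in all 6 panels, and for Slc9a9 it is above both midpoints.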

How the data were processed

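Poly(A) RNA of 13 mouse hearts was measured as raw counts per gene symbol, 1 deposited file per heart. The tools named in the submitters' processing notes are STAR 2.4.0 for alignment and featureCounts 1.4.4 for counting, with the build mm10 (GRCm38). The sources used here do not give annotation, strand setting or multimapping rules. All 24061 symbols were shared, and 0 of 78 file pairs were identical. Depth was 20.1 to 52.6 M counted reads per library, and errors cover the spread between hearts with counting error.

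Counts of the 9 libraries not labelled potential outlier were filtered by filterByExpr, scaled by TMM and fitted with edgeR 4.0.16 (quasi-likelihood F test, robust, 1 mean per genotype, R 4.3.3). Adjusted p-values are Benjamini-Hochberg over all tested genes, with 0.05 as the limit for a call. The contrast was WT/E3A minus 0.5 times each homozygous mean on the log2 scale. CPM were computed from these counts, except marker sums, which used all counts without filter or TMM factors. The replicate numbers follow accession order and pair nothing. Cpt1b was tested by an exact permutation of log2(CPM + 0.1).

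Named genes were all genes called, then genes of lowest p up to 12 on each side, the members of lowest p of each list described, all clock genes and a fixed set. Other list members, Egf and the oxidation genes given by their place between the homozygous genotypes were named after their values were seen. Members and lists were chosen with earlier results of these data known. Lists are described by counts and medians, with no set test. Alternatives were other scaling, filters, DESeq2 1.42.0, limma 3.58.1 (voom, with quality weights for 13 libraries), a 2-group design, the title prefix as a block, all 13 libraries, and leaving out each library. The code was tested on simulated data. RefSeq positions (GRCm38.p6) were matched for 13605 symbols directly and 712 by older names, and 56 of the 14373 had no match. Results of some genes in the lists are not reported here, though list counts include them.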

Additional observations from a re-analysis of the deposited data

Results flagged for a closer look

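In all 13 libraries, 72 groups of 4 or 5 hearts (clock genes and Cpt1b, CPM with TMM over 13 libraries) were searched for a heart far from the rest of its genotype, and 7 had one. Chance gives about 1 in 20 groups. Of the 7, 5 were in WT/WT replicate 1, a library labelled potential outlier that is not among the 9. There Hlf stood at 9.41 CPM, below the other WT/WT hearts (23.1 to 25.5), Clock at 21.05 CPM (others 86.6 to 87.2) and Cpt1b at 1.58 CPM (others 2.83 to 3.00). In the same heart Cry1 stood at 17.45 CPM, above the others (12.7 to 13.4), and Fkbp5 at 22.2 CPM (others 11.01 to 12.8). The remaining 2 were in libraries of the comparison. Arntl in WT/E3A replicate 4 was 15.75 CPM, below the other WT/E3A hearts (19.5 to 19.7), and without this heart its deviation was -0.65 and its call was lost (edgeR adjusted p = 0.0796). The Arntl call was lost as well without WT/E3A replicate 2 (-0.79, edgeR adjusted p = 0.0695) or replicate 3 (-0.80, 0.146). Cry1 in E3A/E3A replicate 3 was 12.58 CPM, below the other E3A/E3A hearts (14.1 to 14.5). WT/E3A replicate 1 was not flagged for Clock, Hlf or Cry1, though its values, given above, also stood apart.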

How the results depend on the processing

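The 4 genes called off the midpoint became 8 with no filter on low counts, 21 with DESeq2, 0 with the title prefix as a block, 0 with all 13 libraries and 0 with all 13 and the block. Leaving out 1 library at a time gave 0 to 13. There were 0 without E3A/E3A replicate 4, WT/E3A replicate 2, WT/E3A replicate 4, WT/WT replicate 3 or WT/WT replicate 4, and 2 without replicate 3 of either E3A/E3A or WT/E3A. There were 10 without WT/WT replicate 2 and 13 without E3A/E3A replicate 5. Other scaling, a stricter filter, limma-voom, 2 groups and voom quality weights on 13 libraries gave 3 to 6. With 13 libraries edgeR called 0 genes and DESeq2 6. In a block fit the C6 hearts carry no genotype information, so WT/WT rests on replicate 2 alone, assumed to vary like the others. For the named genes, 1827 alternative values were computed: 41 lost a call, 36 gained one and 0 reversed a call. Of 533 alternative list medians 74 changed sign. The median clock deviation was 0.19 in the 4 labelled libraries alone. No paired analysis was possible because the labels carry no replicate numbers that genotypes share. The SE of a deviation was 0.17 for Ciart (996 reads in the 9 libraries) and 0.55 for Per2 (3584 reads), against a median of 0.08 over all genes tested, and the part of depth in this was not tested. The cause of these changes was not tested.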

Other observations

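Genes known to respond to glucocorticoid hormone and fasting varied widely between hearts of 1 genotype. Pdk4, the kinase that shuts off pyruvate oxidation, had 649, 408 and 506 CPM in WT/WT, 279, 896 and 685 CPM in WT/E3A, and 262, 281 and 1220.0 CPM in E3A/E3A. E3A/E3A replicate 5 was highest of the 9, and WT/E3A replicates 3 and 4 came next. Fkbp5, a hormone-induced cochaperone, had 13.6, 13.5 and 11.7 CPM in WT/WT, 12.4, 20.2 and 28.6 CPM in WT/E3A, and 12.3, 17.1 and 39.5 CPM in E3A/E3A, with the same heart highest. Tsc22d3 was also highest there, at 168 CPM, against 66.5 to 113 CPM in WT/WT and 106 to 150.2 CPM in WT/E3A. None of these 3 genes passed the test against the midpoint in edgeR, with deviations of 0.27 (SE 0.43) for Fkbp5, 0.38 (SE 0.30) for Tsc22d3 and 0.17 (SE 0.63) for Pdk4.

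Some short lists of markers of rarer cell types had medians far from 0 with few reads behind them and 0 members called by edgeR. Sums of markers are again CPM without TMM factors. Lymphocyte markers were negative in 5 of 5 tested (median -0.36), with an unadjusted p under 0.05 for 1, Cd79a (-0.72, SE 0.26), and their summed level was 4.72 to 5.97 CPM in WT/WT, 3.78 to 4.73 CPM in WT/E3A and 3.92 to 7.71 CPM in E3A/E3A. White adipocyte markers had a median of -0.37 over 5 genes, and their sums overlapped, at 2.59 to 6.10, 3.32 to 6.29 and 3.19 to 6.29 CPM. Epicardial markers had a median of 0.32 over 7 genes, with sums of 13.5 to 16.2, 13.4 to 23.4 and 17.1 to 23.9 CPM.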
